A study of Rattus norvegicus with 16 samples.

Results

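The nuclear genes of the mitochondrial respiratory chain were followed in the rat hippocampus 24 h after fluid percussion injury. The members were all genes whose array name began with Nduf, Uqcr, Cox4 to Cox8 or Atp5, or was Sdha, Sdhb, Sdhc or Sdhd. This gave 87 of the 26583 named genes on the array, measured by 109 probes, and each gene was represented by its probe of highest mean signal. Complex I accounted for 42 genes, complex II for 4, complex III for 7, complex IV for 16 and complex V for 16. The remaining 2 names (Cox4nb and Atp5sl) belong to genes now called Emc8 and Dmac2, which are not subunits of these complexes. The rule used names only.

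Whole hippocampi of 16 adult male Sprague-Dawley rats were profiled, 1 rat per single-colour Agilent array. Naïve rats (3 arrays) received neither injury nor treatment, and Sham rats (2 arrays) were anesthetized and prepared for surgery but not injured. TBI rats (3 arrays) received a severe parasagittal fluid percussion injury, in which a pulse of fluid strikes the exposed dura. TBI+PMI (3 arrays), TBI+JM6 (3 arrays) and TBI+E33 (2 arrays) rats received the same injury plus a drug: PMI (PMI-006) or JM6, an inhibitor of kynurenine 3-monooxygenase, by oral gavage, or E33, which is estradiol. The labels give a subcutaneous and the methods an intraperitoneal route for E33. The methods describe groups of 3 rats, and arrays of 2 Sham and 2 TBI+E33 rats were analysed here, so the number of rats limits the precision of every value.

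The respiratory chain passes electrons from NADH (complex I) and succinate (complex II) through ubiquinone to complex III, then through cytochrome c to complex IV, which reduces oxygen. Complexes I, III and IV pump protons out of the mitochondrial matrix, and complex V, the ATP synthase, uses the returning protons to make ATP. All of complex II and most subunits of the others are encoded in the nucleus, the remainder in the mitochondrial genome, and neurons depend heavily on this pathway to restore ion gradients.

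Genes of the chain are known to share promoter elements read by NRF-1, by ETS factors such as GABP, and by YY1. Promoters of 300 bases (250 before and 50 after the start, RefSeq, GRCr8) matched 74 of the 87 members, 73 of them distinct. The letters GCGCNTGCGC (NRF-1), read on both strands like the other motifs here, were found in 15 of the 73 promoters (20.5%) against 4.25% of all 33469 promoters. CCGGAAG (ETS/GABP) was in 22 (30.1%) against 8.75%, and AAGATGGCG (YY1) was in 9 (12.3%) against 1.73%. At least 1 of these motifs was present in 40 members (54.8%) against 13.4% of all promoters. GGGCGG (SP1) was in 33 (45.2%) against 33.1%. Promoters of the members were also richer in GC, with a median of 57.3% against 51.7%, and held a median of 20 CpG dinucleotides against 7. A match of letters is a description of the sequence and not a measured binding site. One promoter per complex is shown, each with at least 1 of the shared motifs, with the letters of NRF-1, ETS/GABP and YY1 motifs in capitals. They belong to Ndufs6 of complex I (chr1:31797150-31797449, plus strand), Sdha of complex II (chr1:30764303-30764602, plus strand), Uqcrc2 of complex III (chr1:184598990-184599289, plus strand), Cox4i1 of complex IV (chr19:65630133-65630432, plus strand) and Atp5c1 of complex V (chr17:73333435-73333734, plus strand).
Ndufs6: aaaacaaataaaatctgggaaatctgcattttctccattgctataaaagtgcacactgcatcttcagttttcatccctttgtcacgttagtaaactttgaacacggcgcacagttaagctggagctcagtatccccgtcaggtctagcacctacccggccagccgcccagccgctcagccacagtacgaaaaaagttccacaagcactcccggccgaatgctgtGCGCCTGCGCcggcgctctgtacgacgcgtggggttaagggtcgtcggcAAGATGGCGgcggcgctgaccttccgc
Sdha: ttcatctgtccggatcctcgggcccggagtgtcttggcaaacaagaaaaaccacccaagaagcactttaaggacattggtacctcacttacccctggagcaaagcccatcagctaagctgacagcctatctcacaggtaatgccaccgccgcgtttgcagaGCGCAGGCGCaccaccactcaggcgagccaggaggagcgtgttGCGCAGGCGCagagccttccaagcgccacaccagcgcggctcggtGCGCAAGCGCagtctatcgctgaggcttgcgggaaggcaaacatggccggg
Uqcrc2: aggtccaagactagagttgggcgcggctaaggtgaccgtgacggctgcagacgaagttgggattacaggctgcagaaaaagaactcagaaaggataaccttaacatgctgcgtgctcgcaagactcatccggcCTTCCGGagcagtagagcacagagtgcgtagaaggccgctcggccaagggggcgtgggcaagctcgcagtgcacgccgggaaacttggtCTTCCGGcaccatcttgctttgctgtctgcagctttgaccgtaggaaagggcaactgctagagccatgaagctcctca
Cox4i1: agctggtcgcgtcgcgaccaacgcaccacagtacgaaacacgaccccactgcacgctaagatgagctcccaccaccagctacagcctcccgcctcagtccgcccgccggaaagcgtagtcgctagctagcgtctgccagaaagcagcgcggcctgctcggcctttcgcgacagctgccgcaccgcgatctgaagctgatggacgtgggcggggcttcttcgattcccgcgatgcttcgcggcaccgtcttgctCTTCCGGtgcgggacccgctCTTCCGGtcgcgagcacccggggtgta
Atp5c1: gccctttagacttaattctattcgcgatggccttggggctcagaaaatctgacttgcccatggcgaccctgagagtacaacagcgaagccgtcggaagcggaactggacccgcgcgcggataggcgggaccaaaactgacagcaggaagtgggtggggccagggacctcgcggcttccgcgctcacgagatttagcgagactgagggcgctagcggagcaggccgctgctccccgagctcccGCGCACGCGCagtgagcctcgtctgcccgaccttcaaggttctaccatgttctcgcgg
The Ndufs6 promoter held an NRF-1 and a YY1 motif, that of Sdha 3 separate NRF-1 motifs, those of Uqcrc2 and Cox4i1 2 ETS/GABP motifs each, and that of Atp5c1 an NRF-1 motif. The Cox4i1 promoter overlaps that of the divergent neighbour Emc8, the gene that the array names Cox4nb.

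Values are given as log2 of the signal relative to the array's own 75th percentile over probes above background, and differences are between group means of these values. A probe was tested where 1 group or more had it above background on all of its arrays, and it was called if the limma p-value adjusted over all 22827 tested probes was under 0.05. Of the 87 members, 84 were tested and 62 were above background on all 16 arrays. The 3 that were not tested were Cox8c, a testis-type subunit of complex IV (above background on 1 array), Ndufa13-ps (4 arrays) and the complex I assembly factor Ndufaf2 (2 arrays). No member was saturated on any array, and 20 lacked a value on at least 1 array because the spot was an outlier.

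The arrays fell into 2 scanning sessions: Naïve, Sham and TBI arrays (slides 1 and 2) in the first and all drug arrays (slides 3 and 4) in the second. Drug treatment and session therefore cannot be told apart. The first session had 16282 to 18245 probes above background per array against 20259 to 24984 later, while arrays of the same group correlated at 0.964 to 0.986. Within the first session, slide 1 held both Sham arrays with Naïve 1 and 2, and slide 2 held the 3 TBI arrays with Naïve 3. The neuronal genes Snap25, Gad1 and Slc17a7 were above background on all 16 arrays. The summed level of 8 choroid plexus markers, relative to the 75th percentile, was 76.7 on Naïve 2, 122 on Sham 1 and 152 on TBI+PMI 1 against 0.203 to 7.67 on the other 13 arrays, so these 3 dissections held far more signal of that neighbouring tissue. In these bulk samples, fewer cells of a type and less RNA per cell cannot be told apart.

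The first comparison set injury against surgery alone. Its groups shared no slide, so injury and slide cannot be told apart in it. In TBI against Sham, 4 of the 84 tested members rose and 0 fell, against 2.93% of all tested probes called higher and 6.49% called lower. The 4 calls were Uqcrq, a small subunit of complex III, and the complex IV genes Cox7c, Cox6c1 and Cox6a2. The median difference over the 84 members was -0.10, beside -0.03 over all tested probes, and its sign turned with slide as a block, as given with the slide values. At an unadjusted p under 0.05 stood 9 members (10.7%), against 26% of all probes. The members' median lay below that of all probes by 0.02 to 0.40 in the 23 settings run. Scalings that move all probes of an array by the same amount can hardly change this gap. The other settings reuse the same arrays, so their number is no independent support.

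**Figure D1:**
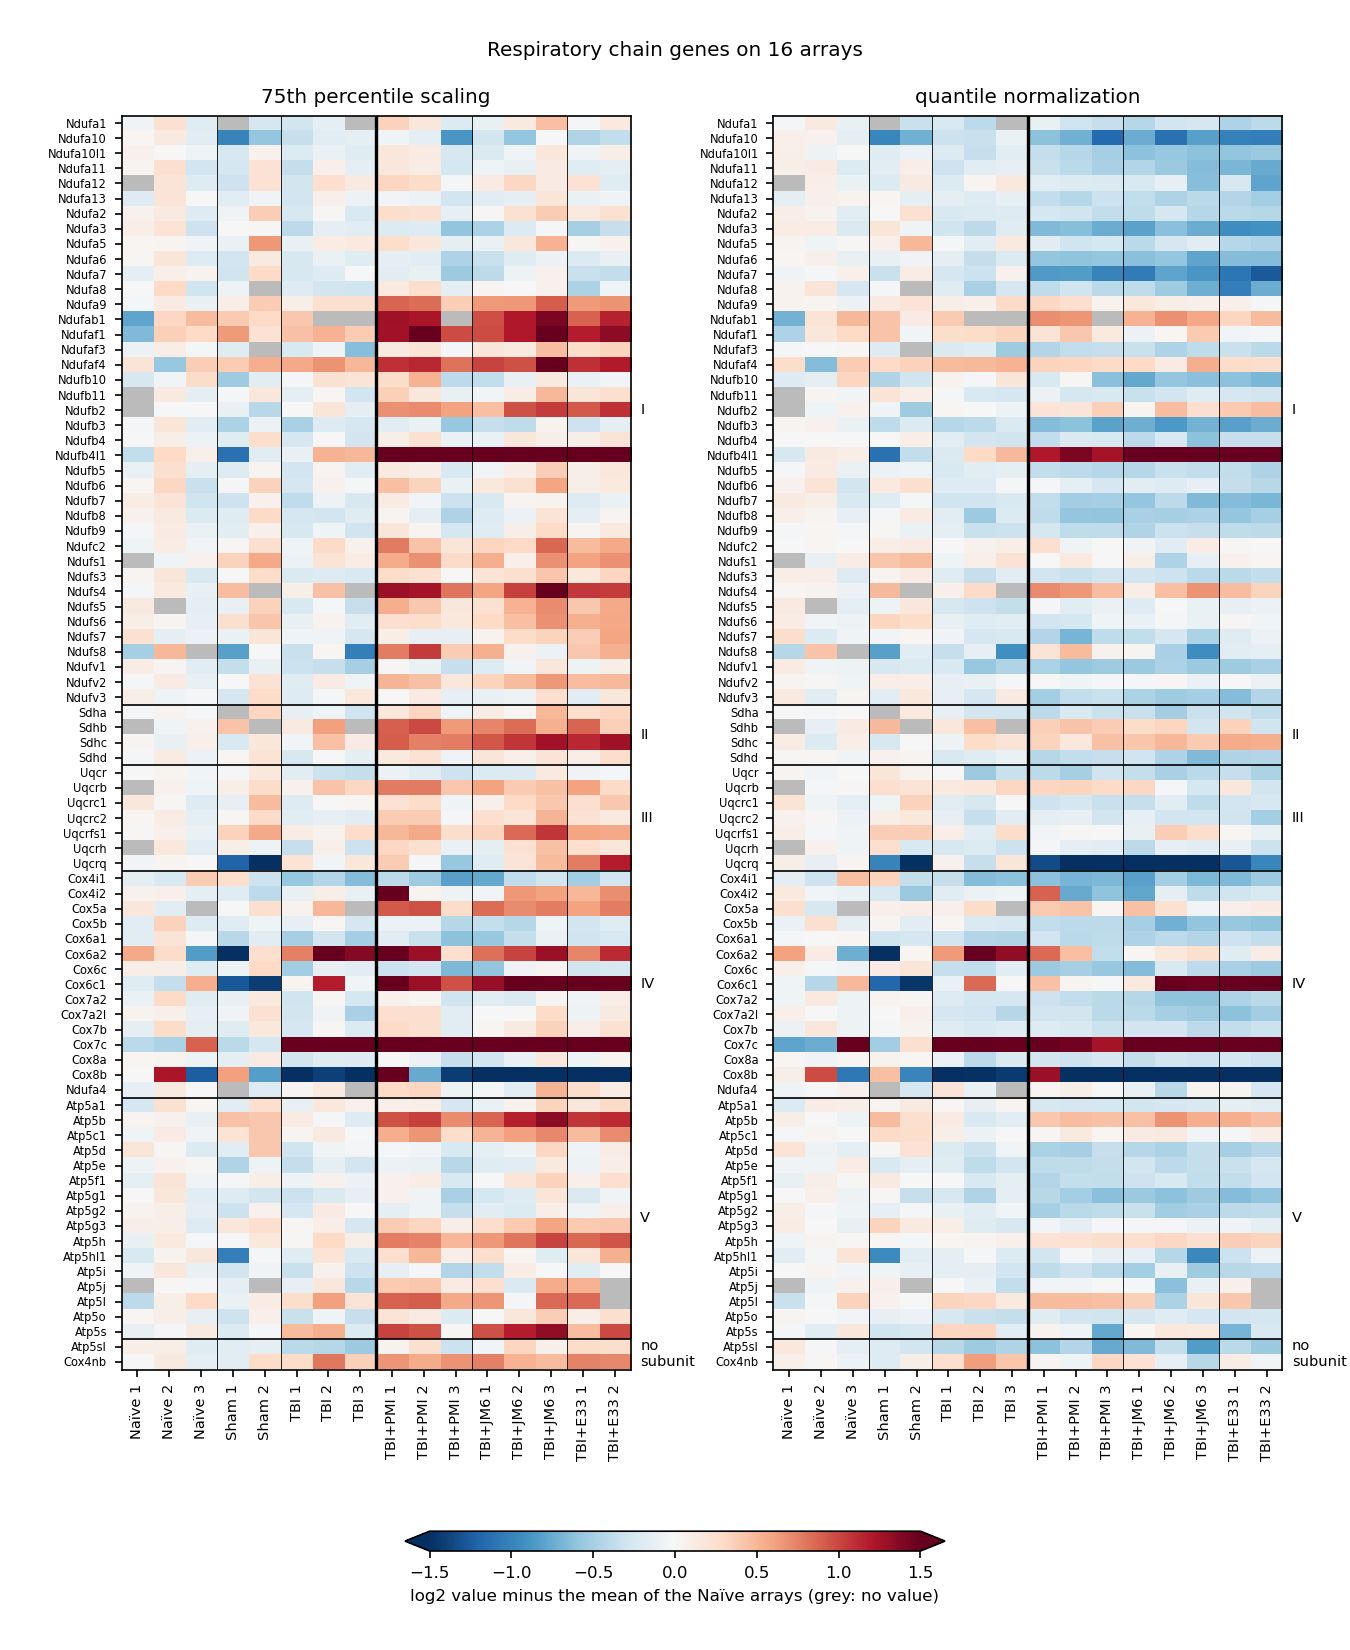
Each of 83 of the 84 tested genes (rows, by complex) on each of the 16 arrays (columns, by group), as the log2 value minus the mean of the Naïve arrays, scaled to the 75th percentile (left) and after quantile normalization (right). The thick vertical line separates the scanning sessions, colours run from -1.5 to 1.5, and grey marks a missing value; most rows stay pale across the Naïve, Sham and TBI columns, while Cox7c, Ndufb4l1 and Cox6c1 are darkest in the drug columns.

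Complex I, the NADH dehydrogenase, had 40 tested members and none was called in TBI against Sham. Their median difference was -0.12, with 11 above 0 and 29 below. The core subunits, which carry the flavin and the iron-sulfur clusters or their fold, gave no call. Ndufs1 differed by -0.38 (adjusted p = 0.267) and Ndufs3 differed by -0.35 (adjusted p = 0.221), Ndufs7 by -0.16, Ndufs8 by -0.03, Ndufv1 by -0.16 and Ndufv2 by -0.14. Of the assembly factors, which build complex I without staying in it, Ndufaf1 differed by 0.02, Ndufaf3 by -0.12 and Ndufaf4 by 0.12. Ndufs6, an accessory subunit, had Sham values of 2.90 and 3.07 and TBI values of 2.54, 2.71 and 2.49. The 3 TBI arrays were below both Sham arrays for Ndufs6, and after quantile normalization its difference of -0.45 was called (adjusted p = 0.0364).

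Complex II, the succinate dehydrogenase, showed no call among its 4 genes, with a median difference of -0.15. Sdha, the flavoprotein, had 1 usable Sham value, 2.43, because the spot was an outlier on Sham 1. The TBI values of Sdha were 1.98, 2.04 and 1.81, all below it, with a difference of -0.49 (adjusted p = 0.21). Sdhb, the iron-sulfur subunit, differed by -0.06, and the membrane anchors Sdhc and Sdhd by 0.20 and -0.24.

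Complex III had 7 tested genes, a median difference of -0.24 and 1 call. That call was Uqcrq (probe on rn4 chr10:38889265-38889324, minus strand). Its values were -6.41 and -6.96 on the Sham arrays, -5.0, -5.25 and -5.04 on the TBI arrays, and -5.25, -5.17 and -5.20 on the Naïve arrays. Sham was the group that stood apart, with both arrays below every Naïve and TBI array. The fitted difference of TBI from Sham was 1.59 (SE 0.28, adjusted p = 0.00865), with the probe above background on 0 of 2 Sham arrays and 3 of 3 TBI arrays. With Sham set to the lowest signal above background where its own was lower, TBI was 2.33-fold higher. That fold holds for this scaling only. Under other settings the difference ran from 0.88 to 1.86. The call was lost with normexp background correction, scaling to E1A control spots and limma on the compared groups alone. It was also lost with the methods' t-test after adjustment and with slide as a fixed block. The core proteins Uqcrc1 and Uqcrc2 differed by -0.24 and -0.30, and Uqcrfs1, the Rieske iron-sulfur protein, by -0.31, none of them called.

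Complex IV, the cytochrome c oxidase, held the other 3 calls among 15 tested genes, whose median was -0.13. Cox7c (probe on rn4 chr2:15254139-15255000, minus strand) had Sham values of -8.36 and -8.22 and TBI values of -6.41, -6.16 and -5.72. Each TBI array was above each Sham array, but the probe was above background on only 1 of 3 TBI arrays and on no Sham array. The fitted difference of 2.20 (SE 0.45, adjusted p = 0.0146) thus rests mostly on values not above background, and no fold is given. Cox6c1 (rn4 chr19:54398139-54398198, minus strand), which RefSeq now lists as a pseudogene of Cox6c, went from -5.35 and -5.50 in Sham to -4.03, -2.89 and -4.11 in TBI. All 3 TBI values were higher than both Sham values, a difference of 1.75 (SE 0.47, adjusted p = 0.0363). Its second, dimmer probe gave 0.37 (adjusted p = 0.586). The probe of Cox6c itself differed by -0.39 (adjusted p = 0.307), and because near-identical copies can bind the same probe, the signal of Cox6c1 is uncertain.

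Cox6a2, the heart and skeletal muscle form of subunit VIa (rn4 chr1:187464580-187464639, minus strand), had Sham values of -4.24 and -1.71. The TBI values were -1.2, 0.10 and -0.58, above both, and the difference was 2.42 (SE 0.66, adjusted p = 0.039). The Sham arrays lay further apart than the fitted difference itself, and the call was lost without Sham 1, TBI 2 or TBI 3. The liver-type partner Cox6a1, the usual form in brain, differed by -0.13 (adjusted p = 0.718). The other nuclear subunits of complex IV named by role gave no call: Cox5a 0.15, Cox5b 0.01, Cox7a2 -0.19, Cox7a2l -0.36, Cox8a -0.21 and Ndufa4, a complex IV subunit despite its name, 0.29. Cox4i1, the regulatory subunit used in most tissues (rn4 chr19:51030141-51030200, plus strand), had Sham values of 5.69 and 5.13 and TBI values of 4.87, 5.0 and 4.79. All TBI values were below all Sham and Naïve values (5.29, 5.21 and 5.82), yet the difference of -0.52 from Sham (SE 0.24, adjusted p = 0.193) and of -0.55 from Naïve (adjusted p = 0.165) did not pass the test.

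**Figure D2:**
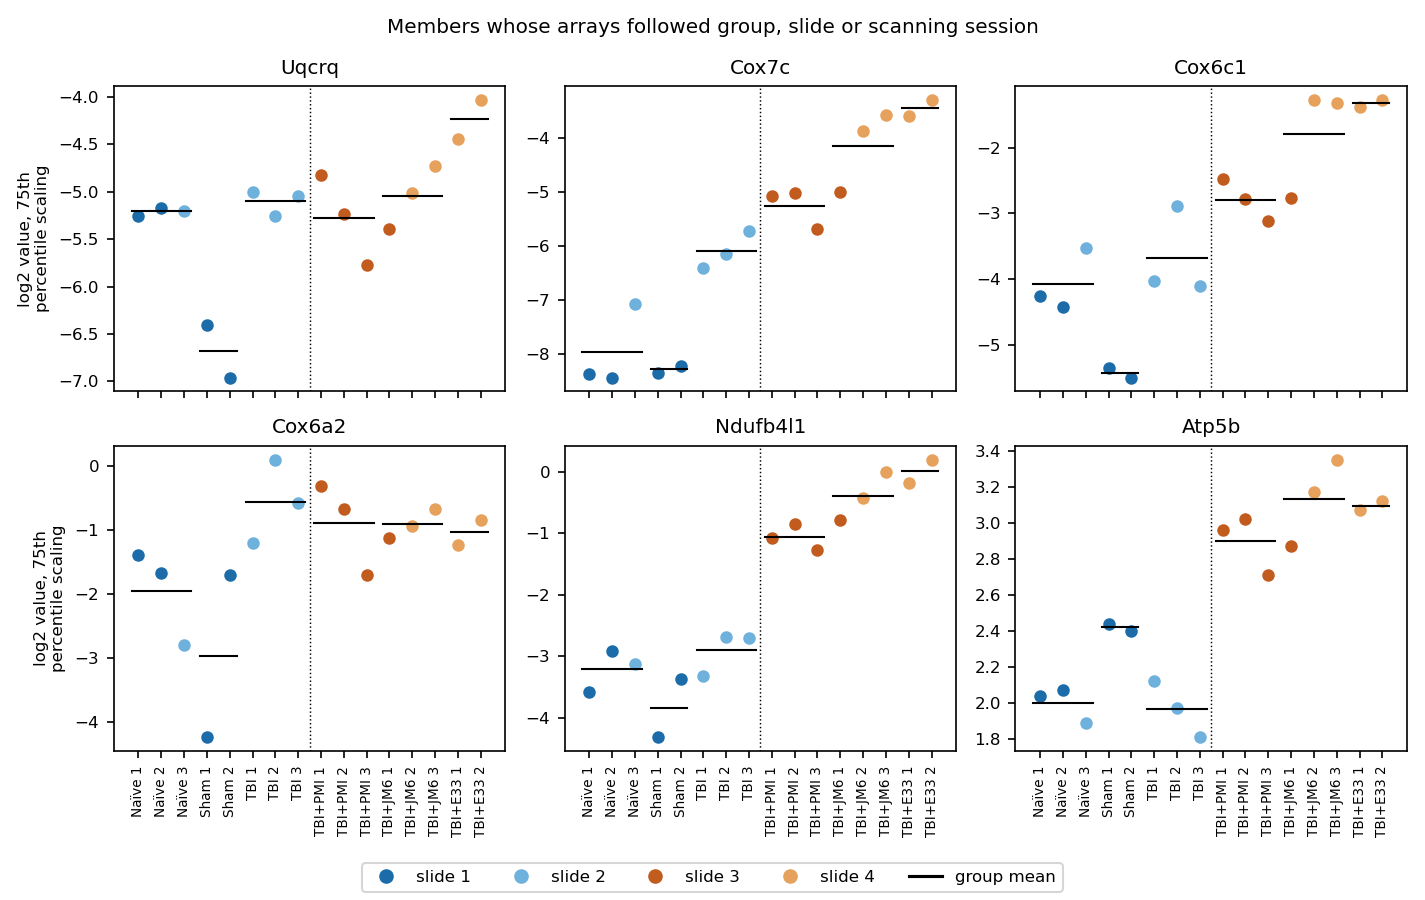
Log2 value relative to the array's 75th percentile for 6 members on each array, by group, coloured by slide, with a line at each group mean. Uqcrq is lowest on the 2 Sham arrays, Cox6a2 is spread from -4.24 to -1.71 within Sham, and Cox7c, Cox6c1, Ndufb4l1 and Atp5b are highest on the drug arrays.

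Complex V, the ATP synthase, had 16 tested genes with a median of -0.01 and no call. Atp5b, the catalytic beta subunit (rn4 chr7:1378451-1378510, plus strand), had Sham values of 2.44 and 2.40, TBI values of 2.12, 1.97 and 1.81, and Naïve values of 2.04, 2.07 and 1.89. Both Sham arrays were above all Naïve and TBI arrays, and the difference of TBI from Sham was -0.45 (SE 0.18, adjusted p = 0.126). The 5 subunits of the F1 head all had differences at or below -0.01, from -0.45 to -0.01, among them Atp5a1 at -0.01 and Atp5c1 at -0.25. The 3 genes for the same ring subunit c, Atp5g1, Atp5g2 and Atp5g3, differed by 0.01, 0.08 and -0.26.

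The 20 core and catalytic subunits named by role gave 0 calls in TBI against Sham, with 4 differences above 0, 16 below and a median of -0.20. Of 74 members with a value on all arrays of both groups, 10 (13.5%) had every TBI array above every Sham array and 17 (23%) every TBI array below, against 17.2% and 24.3% of all tested probes, so the members' shares were close to or under the background in both directions. Of 11 neuronal markers, 0 rose and 3 fell in the same comparison (Slc17a7 -1.43, Snap25 -0.68, Thy1 -1.12), the summed level of the list being 42.4 to 47.7 in Sham, 39.6 to 43.2 in Naïve and 29.3 to 37.4 in TBI. Slc17a7 (1.43), Thy1 (1.10) and Syt1 (1.36) were called higher in Sham than in Naïve. Slc17a7 was -1.42, -1.94 and -1.64 in Naïve beside -0.89, -2.41 and -1.73 in TBI. Thy1 was 0.24, 0.50 and 0.44 in Naïve beside 0.76, 0.12 and 0.21 in TBI. Astrocyte markers summed to 74.6 to 86.3 in TBI against 90.3 to 113 in Sham, and leukocyte markers to 0.538 to 2.31 against 0.304 to 0.427. The brightest genes weigh most in such a sum, and the astrocyte list was mixed. S100b was 4.74, 4.44 and 4.43 in TBI against 4.94 and 5.46 in Sham, but Vim 0.39, 1.45 and 1.21 against -0.92 and -0.10. Against Naïve, TBI was called higher for Gfap (2.53) and Vim (2.63) and lower for Aldh1l1 (-0.80). The part of these cell types in the members' differences was not tested.

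**Figure D3:**
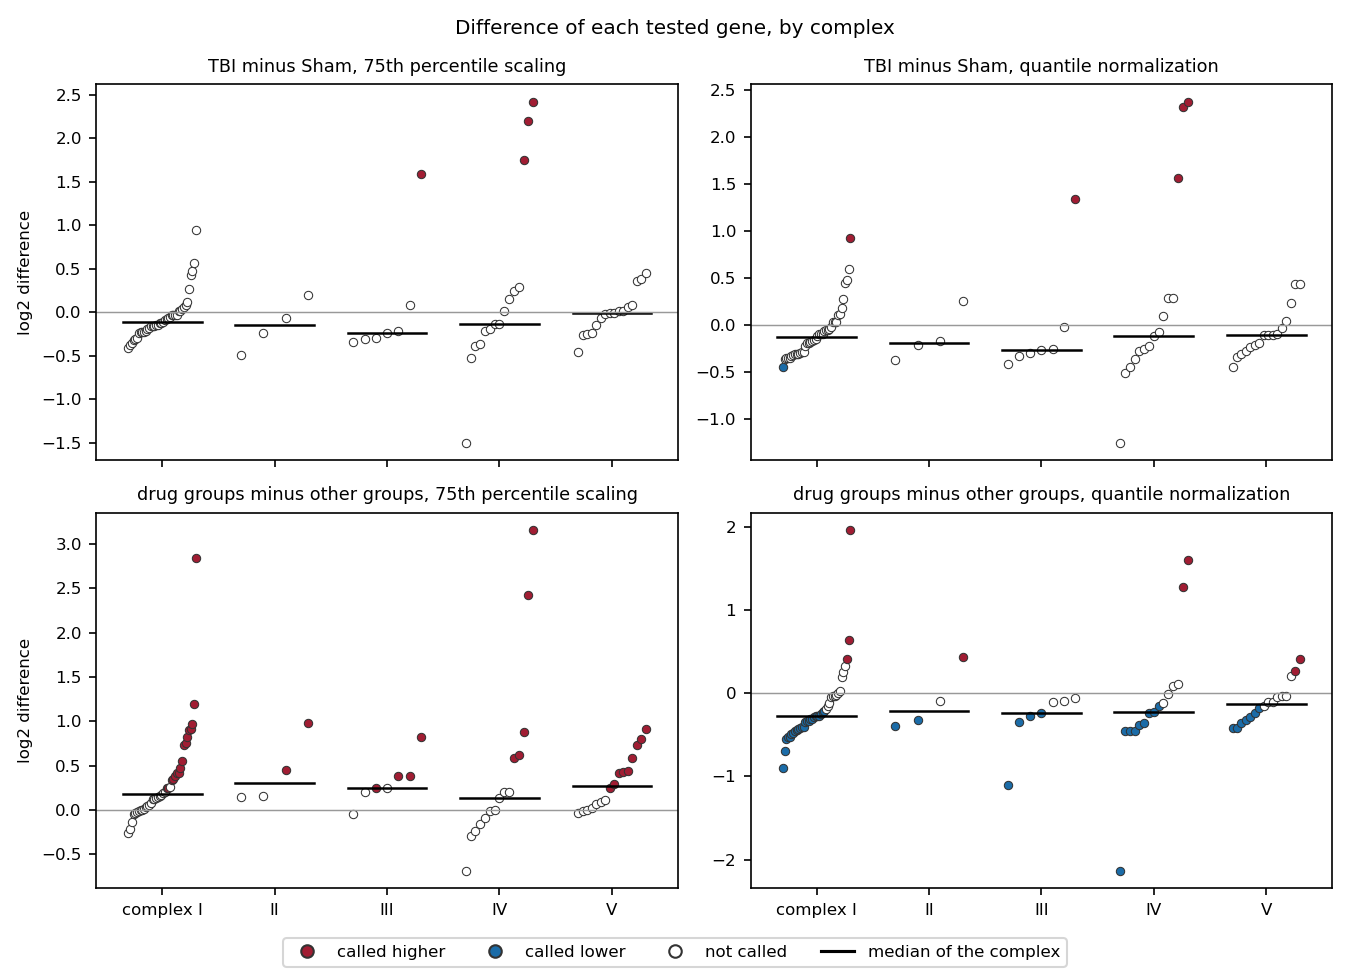
Log2 difference of each tested gene by complex, for TBI minus Sham and for the drug groups minus the other groups, under both scalings; red points were called higher and blue points called lower. In TBI minus Sham the calls are 1 of complex III and 3 of complex IV under the 75th percentile, and in the drug comparison the calls change from 39 higher and 0 lower to 8 higher and 48 lower.

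The comparison with Naïve rats asked how injury changed the chain relative to untouched animals. In TBI against Naïve, 1 member rose and 0 fell, against 2.98% and 1.73% of all probes, with a median of -0.12 beside 0.04. This was Cox7c, at -8.37, -8.44 and -7.07 in Naïve, each below all TBI values, with a difference of 1.86 (SE 0.41, adjusted p = 0.0242). Since Naïve was not above background and the TBI group only on 1 of 3 arrays, no fold is given. Cox6a2 was at -1.39, -1.68 and -2.80 in Naïve and differed by 1.40 without passing the test (adjusted p = 0.195). Of 68 members with values on all arrays, 5 (7.35%) had every TBI array above Naïve and 11 (16.2%) every TBI array below, against 12.5% and 10.4% of all probes. Among the genes named by role, Ndufv1 differed by -0.39 (adjusted p = 0.183), Ndufaf1 by 0.45 and Ndufaf4 by 0.58 (adjusted p = 0.176). After quantile normalization Cox6a1 was called lower (-0.40, adjusted p = 0.0319; -0.42 and adjusted p = 0.187 with the 75th percentile).

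Sham against Naïve measured anesthesia and surgery alone. Here 0 members rose and 1 fell, against 6.57% and 1.52% of all probes, and the median was 0.00 beside 0.06. The 1 that fell was Uqcrq, by 1.48 on the log2 scale (SE 0.28, adjusted p = 0.00948). With the same lowest signal set for Sham, Naïve was 2.15-fold above Sham on this scaling. Under other settings the difference ran from -1.75 to -0.41. The call was lost with normexp background correction, scaling to E1A control spots, limma on the compared groups alone and the methods' t-test after adjustment. Atp5b differed by 0.42 (adjusted p = 0.176) and Uqcrfs1 by 0.46 (adjusted p = 0.212), with both Sham arrays above all Naïve arrays for each. At an unadjusted p under 0.05 stood 5 members (5.95%), against 22.7% of all probes. With quantile normalization Ndufa10, an accessory subunit of complex I, was also called lower (-0.85, adjusted p = 0.0224).

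TBI and Sham shared no slide, and only Naïve arrays lay on both slides of this session. A fixed block for slide therefore rests on the Naïve arrays. With slide as a fixed block, TBI against Sham gave Uqcrq 1.58 (adjusted p = 0.343), Cox7c 0.85 (adjusted p = 0.576), Cox6c1 0.93 (adjusted p = 0.641) and Cox6a2 3.68 (adjusted p = 0.343), and none of the 4 calls was kept. Cox7c in TBI against Naïve became 0.97 (adjusted p = 0.255), and Uqcrq in Sham against Naïve stayed called at -1.47 (adjusted p = 0.0379). The single Naïve array on the TBI slide, Naïve 3, was nearer to the TBI arrays than Naïve 1 and 2 for Cox7c (-7.07 against -8.37 and -8.44). For Cox6a2 it was the furthest from them (-2.80 against -1.39 and -1.68), and for Cox6c1 (-3.53 against -4.26 and -4.43) it lay within the TBI range. The members' median in TBI against Sham turned from -0.10 to 0.04 with the fixed block (51 members above 0 and 33 below, from 29 and 55), beside 0.06 over all probes, and to 0.02 with the percentile over probes above background on all arrays (46 and 38), beside 0.10. The count in TBI against Sham was 1 without Sham 1, Sham 2 or TBI 3 and 2 without TBI 2, and it was also 1 without the 3 arrays of high choroid plexus signal, where Uqcrq was left at 1.86 (adjusted p = 0.0417). In TBI against Naïve the count was 0 without Naïve 1, Naïve 2, TBI 2 or TBI 3, and in Sham against Naïve it was 0 without Sham 2.

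Cox8b, the muscle-type form of subunit VIII (rn4 chr1:201057325-201057384, minus strand), had the widest spread of the members within Naïve (SD 1.23, n = 3) and within TBI+PMI (SD 1.91, n = 3). It stood at -2.67, -1.45 and -3.91 in Naïve, -2.06 and -3.50 in Sham, and -4.41, -4.08 and -4.35 in TBI. In TBI+PMI it was -0.51, -3.43 and -4.10, and in the other drug arrays it lay between -5.32 and -4.17. The high values within Naïve, Sham and TBI+PMI were those of Naïve 2, Sham 1 and TBI+PMI 1, the same 3 arrays on which choroid plexus markers summed to 76.7, 122 and 152. TBI differed by -1.5 from Sham (SE 0.89, adjusted p = 0.311) and by -1.61 from Naïve (adjusted p = 0.276), and neither passed the test. Cox4i2, the isoform of subunit IV known from lung and from vascular cells (rn4 chr3:143114177-143114236, plus strand), was 0.34 on TBI+PMI 1 against -1.2 and -1.32 on the other TBI+PMI arrays. On Naïve 2 (-1.17) and Sham 1 (-1.43) Cox4i2 was close to its values on the other arrays of those groups. The part of choroid plexus tissue in these values was not tested.

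**Figure D4:**
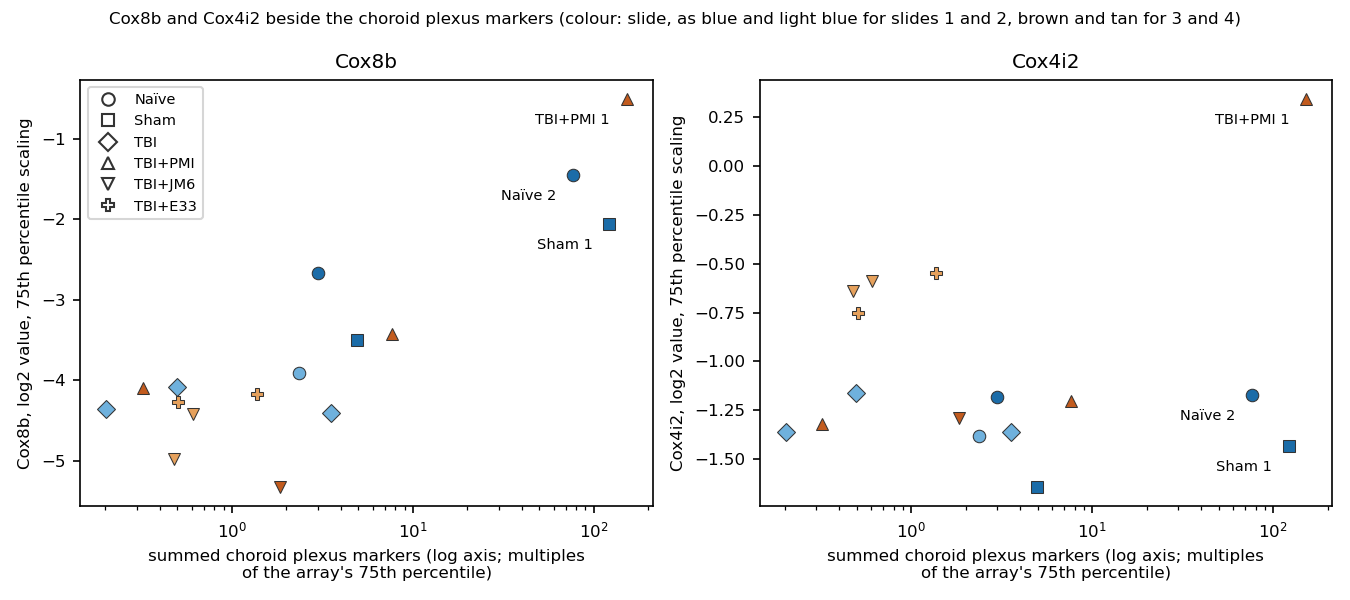
Log2 value of Cox8b and of Cox4i2 on each array against the summed level of 8 choroid plexus markers on a log axis, coloured by slide. The 3 arrays with sums of 76.7, 122 and 152 carry the highest Cox8b value of their own group, and 1 of them, TBI+PMI 1, carries the highest Cox4i2 value.

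Array by array, the members moved little as a group. The median deviation of the 64 members with a value on all arrays from their own mean over the 16 arrays was -0.03, 0.08 and -0.16 in Naïve, -0.18 and 0.09 in Sham, and -0.25, -0.05 and -0.19 in TBI, with drug arrays between -0.21 and 0.29. These ranges overlapped, whereas the median over all probes ran from -0.63 to -0.27 without a drug and from 0.15 to 0.75 with one. After quantile normalization, which makes the distributions of all arrays equal, the members' median was 0.22, 0.21 and 0.18 in Naïve, 0.18 and 0.18 in Sham, 0.07, -0.02 and 0.07 in TBI, and between -0.17 and -0.05 in the drug arrays. On that scale every TBI array was below every Naïve and Sham array and above every drug array.

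**Figure D5:**
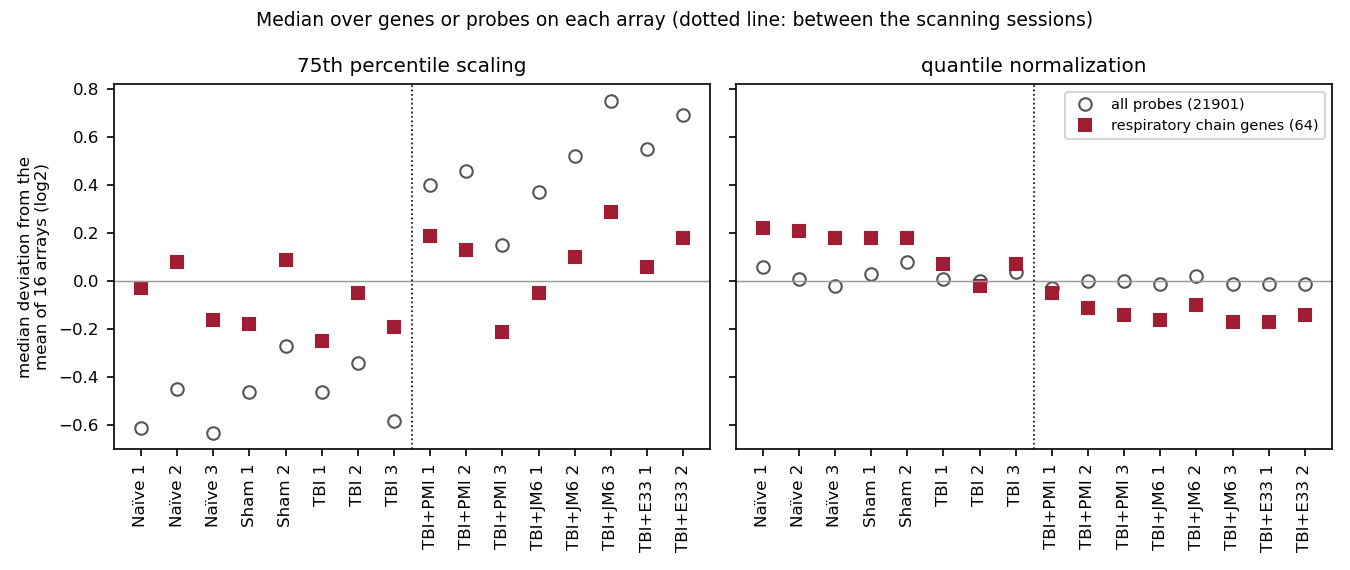
Median log2 deviation per array from the mean of the 16 arrays, for all 21901 probes with a value on every array (open circles) and for 64 members (red squares), under both scalings, with a dotted line between the scanning sessions. Under the 75th percentile the open circles step up by session while the squares do not; after quantile normalization the squares step down from Naïve and Sham through TBI to the drug arrays.

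Within the second session the drugs were compared with each other. Slide 3 held the 3 TBI+PMI arrays with TBI+JM6 1, and slide 4 held TBI+JM6 2 and 3 with both TBI+E33 arrays, so TBI+PMI and TBI+E33 shared no slide. No member was called in TBI+JM6 against TBI+PMI, TBI+JM6 against TBI+E33 or TBI+PMI against TBI+E33, beside 0.0131%, 0.0175% and 0.11% of all probes called in either direction. Medians over the members were 0.08, -0.02 and -0.09, beside 0.18, -0.08 and -0.26 over all probes. With slide as a fixed block these medians turned to -0.07, 0.08 and 0.15, and no member was called. At an unadjusted p under 0.05 stood 4, 1 and 5 members (4.76%, 1.19% and 5.95%), less than the 8.84%, 2.81% and 15% of all probes. For TBI+JM6 against TBI+PMI these were Cox6c1 (1.01), Cox7c (1.12), Cox8b (-2.22) and Ndufb4l1 (0.66), and for TBI+JM6 against TBI+E33 Uqcrq (-0.81). For TBI+PMI against TBI+E33 they were Cox6c1 (-1.46), Cox7c (-1.82), Ndufb4l1 (-1.07), Ndufs7 (-0.52) and Uqcrq (-1.04). With slide as a random block, Cox7c (-1.97, adjusted p = 0.0407) and Uqcrq (-1.10, adjusted p = 0.0453) were called in the last of these, whose groups share no slide. The slide correlation estimated for that fit was negative (-0.087). A p that misses the threshold does not show that the drugs acted alike.

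The comparisons of drug groups with TBI and the comparison of sessions asked whether treated rats differed from untreated ones, and they share the TBI arrays and the session difference. Scaled to the 75th percentile, TBI+JM6 was called above TBI for 24 members and below it for 0, against 69.9% and 0.175% of all probes. After quantile normalization 2 were higher and 13 lower, against 13.9% and 13.3%. For TBI+PMI the members' counts were 15 and 0 (background 56.7% and 0.0482%), then 2 and 7 after quantile normalization (9.96% and 9.21%). For TBI+E33 they were 23 and 0 (70.2% and 0.092%), then 4 and 11 (10.4% and 10%). The members' medians of 0.32, 0.28 and 0.32 were to be read beside shifts of all tested probes of 0.99, 0.79 and 1.08. Most members thus differed by less than the typical probe, 79, 74 and 79 of the 84 lying below these shifts. Most members are bright, and the shift of probes of like brightness is given only for the session comparison, where it was smaller. Summed neuronal markers were 37.8 to 59.7 in the drug arrays against 29.3 to 37.4 in TBI, and leukocyte markers 1.02 to 3.2 against 0.538 to 2.31, and their part in these differences was not tested.

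Over all drug arrays against all other arrays, 39 members were higher and 0 lower with the 75th percentile, against 82.5% and 0.768% of all probes. After quantile normalization 8 were higher and 48 lower, against 26% and 28.5%. The split was 5 higher and 62 lower when the percentile was that of every probe, 3 and 77 with a trend on probe GC content removed, and 4 and 24 when E1A control spots set the scale. For these scalings the share of all probes is not given here, so the splits show the effect of scaling and are no result about the chain. The members' median was 0.20 beside 0.98 for all probes, and 78 of 84 members lay below that shift. In each of the 30 settings run, the members' median was below that of all probes, by 0.23 to 0.80. These settings, too, reuse the same arrays and are no independent support. The members are bright: 72 of the 84 had a mean signal of at least 1330, and above that level the median over all probes was 0.44 and over members 0.18.

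By complex, members called higher in the session comparison numbered 17 of 40 in complex I, 2 of 4 in complex II, 4 of 7 in complex III, 5 of 15 in complex IV and 9 of 16 in complex V. After quantile normalization the numbers higher and lower were 3 and 25, 1 and 2, 0 and 4, 2 and 9, and 2 and 7, in the same order. Cox7c was above background on 1 of the 8 first-session arrays and passed the filter through TBI+JM6 and TBI+E33, where it is high, so its difference is not ranked. Its values were -8.44 to -5.72 in the first session, -5.08, -5.03 and -5.69 in TBI+PMI, -5.01, -3.87 and -3.58 in TBI+JM6, and -3.60 and -3.30 in TBI+E33. Each drug array was above each other array for Cox7c. Among the other members, the differences of Ndufb4l1, named for a copy of a complex I accessory subunit (2.84, SE 0.18, adjusted p = 4.57e-08), and of Cox6c1 (2.43, SE 0.26, adjusted p = 2.4e-06) were the largest. Relative to the shift of all probes they stood 1.86 and 1.45 higher. Ndufb4l1 (rn4 chr14:7547999-7548058, plus strand) was -3.58, -2.91 and -3.13 in Naïve, -4.32 and -3.37 in Sham and -3.32, -2.68 and -2.71 in TBI. In the drug arrays it was -1.07, -0.85 and -1.27 (TBI+PMI), -0.78, -0.42 and 0.00 (TBI+JM6), and -0.18 and 0.20 (TBI+E33). Every drug array was above every other array. Within the first session Ndufb4l1 differed by 0.95 between TBI and Sham (adjusted p = 0.0879), a value called only after quantile normalization (0.93, adjusted p = 0.0465).

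Higher under both scalings were 8 members, among them Atp5b, Atp5h, Cox6c1, Cox7c, Ndufb2, Ndufb4l1 and Sdhc, and their probes had a median GC content of 36.7%, against 45% over the tested members. Atp5b was 2.96, 3.02 and 2.71 in TBI+PMI, 2.87, 3.17 and 3.35 in TBI+JM6, and 3.07 and 3.12 in TBI+E33, all above the first-session range of 1.81 to 2.44. Against TBI its differences were 0.93 (adjusted p = 0.000442), 1.16 (SE 0.16, adjusted p = 5.9e-05) and 1.13 (adjusted p = 0.000184). Relative to the shift of all probes, however, these were 0.14, 0.17 and 0.05, and with the GC trend removed the differences of TBI+PMI and TBI+E33 turned to -0.03 and -0.14. Sdhc was 1.59, 1.44 and 1.45 in TBI+PMI, 1.61, 1.75 and 1.94 in TBI+JM6, and 1.82 and 1.95 in TBI+E33, above all other arrays, which reached 1.12. Its session difference of 0.98 equalled the shift of all probes to within 0.01, and it turned to -0.40 with the GC trend removed. That shift is a median over dim and bright probes. Among probes with a mean signal of at least 1330, which include Sdhc and Atp5b, the session median was 0.44. Ndufb2, an accessory subunit of complex I, differed by 0.92, and with the GC trend removed it became -0.24.

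Other members changed sign with the scaling. Ndufaf1 was called higher at 0.97 (adjusted p = 0.000154) and stood at -0.05 after quantile normalization, and Atp5sl, Ndufaf3, Ndufs3, Ndufs7, Uqcrc2 and Uqcrq were called higher under the first scaling and lower under the second. Uqcrq was 0.86 higher in TBI+E33 than in TBI (adjusted p = 0.015) and -1.10 after quantile normalization (adjusted p = 0.0111). Also called lower after quantile normalization were Cox8b (-2.14) and the complex I accessory subunits Ndufa7 (-0.90) and Ndufa3 (-0.70). Cox4i1 stood at 4.63 to 5.17 in the drug arrays and 4.79 to 5.82 in the others, a difference of -0.29 (adjusted p = 0.062) that was called lower after quantile normalization (-0.46, adjusted p = 0.0104). The direction of change of the chain in drug-treated rats therefore rested on the scaling. Under the first scaling, 73 members had overlapping drug and other arrays. The share of all probes with such overlap is not given here, so this count is no result about the chain.

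The subunits encoded in the mitochondrial genome have no gene symbol on this array and were found by their descriptions and positions on chromosome M, after values had been seen. None of the 11 probes was called in TBI against Sham (median 0.17), TBI against Naïve (-0.04) or Sham against Naïve (-0.13). Against TBI, 2 were called higher in each drug group, NADH dehydrogenase chain 4L in all 3 (0.83 in TBI+JM6, 0.94 in TBI+PMI and 0.97 in TBI+E33), cytochrome c oxidase subunit 2 in TBI+JM6 (0.87), and chain 5 in TBI+PMI (0.52) and TBI+E33 (0.58). These 2 of 11 stand beside 69.9%, 56.7% and 70.2% of all probes called higher in TBI+JM6, TBI+PMI and TBI+E33, and after quantile normalization 0, 1 and 0 were called, the 1 being chain 4L in TBI+PMI (0.83). Over all drug arrays 4 were higher and 0 lower, and 4 were higher and 1 lower after quantile normalization.

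Other genes of the pathway were read from lists of known genes. The mobile carrier and its partners gave no call among 9 genes in TBI against Sham (median -0.21), with cytochrome c, Cycs, at -0.21 and cytochrome c1, Cyc1, at 0.04. Assembly factors of complexes III to V (11 tested, median -0.11) and tricarboxylic acid cycle enzymes (15 tested, median -0.14) gave none either. Of 14 regulators of mitochondrial biogenesis, 0 rose and 3 fell against Sham: the nuclear receptor Esrra (-0.64, adjusted p = 0.0438), the deacetylase Sirt3 (-0.95, adjusted p = 0.0145) and Yy1 (-0.73, adjusted p = 0.0223). Both Sirt3 (0.72) and Yy1 (1.03) had been higher in Sham than in Naïve. Ppargc1a, which encodes the coactivator PGC-1alpha, differed by -0.52 (adjusted p = 0.327), Nrf1 by -0.22, Gabpa by 0.00 and Tfam, the packaging factor of mitochondrial DNA, by 0.29, none called. Against Naïve, Ppargc1b fell (-1.17, adjusted p = 0.0231) and Tfb1m rose (0.86, adjusted p = 0.0398).

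Import and dynamics genes (15 tested, median -0.18) had 0 higher and 2 lower, the fusion protein Mfn1 (-0.84) and the import pore Tomm40 (-1.14). Both Mfn1 (1.29) and Tomm40 (1.48) had been called higher in Sham than in Naïve. Uncoupling and antioxidant genes (9 tested) had 1 lower, Ucp2 (-1.21, adjusted p = 0.0149), which against Naïve was higher in TBI (1.22) and in Sham (2.43). Among 19 glycolysis genes (median -0.03) Ldhb, the lactate dehydrogenase subunit of oxidative tissues, was lower (-0.77, adjusted p = 0.0341). Of 69 mitochondrial ribosomal protein genes (median 0.02), Mrpl43 (-2.10) and Mrps10 (-2.08) were lower. These had likewise been called higher in Sham than in Naïve, Mrpl43 by 2.16 and Mrps10 by 2.56. Except for the biogenesis regulators named by role, these genes are named because 5 or fewer of a list were called, after their values were seen.

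Large housekeeping complexes measured on the same arrays gave a comparison. In TBI against Sham, 79 cytosolic ribosomal protein genes had a median of 0.29 with 1 call, Rps2 (0.82, adjusted p = 0.0271), and 37 proteasome subunits a median of 0.01 with none, beside -0.10 for the 84 respiratory chain genes. In the session comparison the ribosomal proteins had 51 higher and 0 lower, then 18 and 5 after quantile normalization, and the proteasome 30 and 0, then 8 and 9. After quantile normalization 48 of 84 respiratory chain genes were called lower, beside 7 of 11 assembly factors of complexes III to V and 27 of 69 mitochondrial ribosomal protein genes. No test of one list against another was made.

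Several probes were available for 18 members. In TBI against Sham the probes of 1 gene, Cox6c1, differed in call, in TBI against Naïve those of 0, and in Sham against Naïve those of 1, Ndufaf4, whose brightest probe gave 0.46 (adjusted p = 0.33) and another 1.36 (adjusted p = 0.0261). In each drug group against TBI the probes of 8 genes differed in call, and in the session comparison those of 5.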

How the data were processed

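Gene expression was measured on 16 Agilent rat arrays, 1 hippocampus each. Total RNA was amplified by the authors with one of 2 kits, the kit per rat not being given in the sources used here, and the scans were read with Agilent Feature Extraction (9.5.3.1 per the file headers). The deposited intensity values are background-subtracted processed signals per spot. The authors' deposited matrix holds the ratio of each probe to the 75th percentile of its array and was used as an alternative only.

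Control spots and outlier spots were left out, spots were averaged by probe (30367 probes), and log2 signals were scaled to the 75th percentile of probes above background on each array, the percentile named in the methods. Probes that 1 group or more had above background on all its arrays (22827) entered 1 limma (3.58.1) fit in R (4.3.3) over the 6 groups with 10 residual degrees of freedom, adjusted by Benjamini-Hochberg at 0.05. Bounds set a group without signal to the lowest signal above background on each array, or to its own value where higher, on the reported scaling only. Quantile normalization stands beside the session and drug comparisons because the scaling changed their direction. Other alternatives were other scalings, background corrections, filters, slide and replicate blocks, the groups alone, the methods' t-test, and leaving out each array. The limma procedure was tested on simulated data.

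Genes were named from the array files (rn4 probe positions), with current symbols from RefSeq for all 87, of which 20 differed. Named were core subunits, isoforms and assembly factors by role, and up to 8 called rises and falls per comparison; 1 member counted in every total is not reported by name here. Regulators, carriers, assembly factors, cycle, import, uncoupling, glycolysis, mitochondrial ribosomal, cytosolic ribosomal, proteasome and cell type lists were used. The members and lists were chosen with earlier results of these data known. P-values measure the spread between rats within groups, pooled over the 6 groups. They leave out differences between slides or sessions where the compared groups share none.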

Additional observations from a re-analysis of the deposited data

How the results depend on the processing

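The members' counts kept within 1.5 times in 150 comparisons of an alternative with the reported count and moved in 78; of the single genes named, 606 values kept direction and call, 144 kept direction but lost the call and 28 reversed. The cause was not tested in any of these. No share of all probes stands beside the counts of this section, so they describe the processing and are no result about the members. Members called in TBI against Sham, TBI against Naïve and Sham against Naïve (4, 1 and 1 as reported) were 0, 0 and 0 with normexp background correction, with limma on the compared groups alone and with the methods' t-test after Benjamini-Hochberg adjustment. They were 9, 6 and 7 with the methods' t-test at their own unadjusted p and 1.2-fold, where TBI+PMI against TBI+E33 gave 7. They were 2, 0 and 0 with scaling to E1A spots, where TBI+JM6 gave 66 against TBI+PMI and 59 against TBI+E33, and TBI+PMI and TBI+E33 gave 1 and 3 against TBI. The log2 E1A medians were 8.688, 9.407 and 8.661 in TBI+JM6, 10.235, 9.316 and 9.912 in TBI+PMI, and 9.79 and 9.666 in TBI+E33. This scaling moves all probes of an array by the same amount. With the authors' matrix, TBI against Sham, TBI against Naïve and Sham against Naïve gave 8, 3 and 2, and TBI+JM6 and TBI+PMI gave 15 and 9 against TBI. TBI against Sham gave 2 without a filter and 2 with probes above background on all arrays, where TBI against Naïve gave 0, TBI+E33 14 and the sessions 25. Slide as a fixed block gave 0 in TBI against Sham and 0 in TBI against Naïve, and as a random block 2 in TBI+PMI against TBI+E33.

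TBI against Naïve and Sham against Naïve gave 2 and 2 after quantile normalization, 4 and 3 with the 75th percentile over all probes, and 4 and 4 with the GC trend removed, and Sham against Naïve gave 2 when a gene's probes were averaged. TBI+JM6, TBI+PMI and TBI+E33 against TBI (24, 15 and 23 as reported) were 15, 9 and 15 after quantile normalization, 10, 5 and 11 with normexp, 57 (4 higher, 53 lower), 45 (1 and 44) and 53 (3 and 50) with the percentile over all probes, where the sessions gave 67, and 71 (1 and 70), 69 (1 and 68) and 70 (2 and 68) with the GC trend removed, where the sessions gave 80. With the percentile over probes above background on all 16 arrays, an alternative chosen after seeing the data, TBI against Naïve and Sham against Naïve gave 2 and 2, TBI+PMI 26, TBI+E33 39 and the sessions 60 (10 higher and 50 lower). Without the 3 arrays of high choroid plexus signal, also chosen after seeing the data, TBI against Sham gave 1, TBI against Naïve 0 and TBI+PMI against TBI 6.

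Leaving out 1 array gave 1 to 5 members in TBI against Sham, 0 to 1 in TBI against Naïve, 0 to 1 in Sham against Naïve, 0 between any drugs, 17 to 27 in TBI+JM6 against TBI, 6 to 22 in TBI+PMI (6 without TBI+PMI 2, 7 without TBI+PMI 1 or TBI 1, 8 without TBI 3), 10 to 23 in TBI+E33 (10 without TBI+E33 2, 14 without TBI+E33 1, 15 without TBI 1) and 30 to 41 in the sessions. Replicate numbers did not pair the arrays. Deviations of same-numbered arrays from their own group means correlated at -0.19 to 0.18, with 3 of 22 pairs over 0.1. With the replicate block the counts were 4 in TBI against Sham, 1 in TBI against Naïve, 1 in Sham against Naïve, 0 between drugs, and 25, 14 and 19 in TBI+JM6, TBI+PMI and TBI+E33 against TBI, and 38 in the sessions.

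Values that reversed were those of drug arrays. With the GC trend removed, TBI+JM6 against TBI gave Sdhc -0.30, Atp5s -0.24 and Ndufaf1 -0.29, TBI+PMI gave Atp5b -0.03, Ndufs4 -0.07, Ndufaf1 -0.17, Ndufb2 -0.30 and Sdhc -0.39, TBI+E33 gave Atp5b -0.14, Sdhc -0.38, Ndufb2 -0.26 and Uqcrq -0.40, and the sessions gave Sdhc -0.40, Ndufaf1 -0.20, Ndufb2 -0.24 and Atp5b -0.26. Quantile normalization and the authors' matrix reversed Atp5s (-0.04 and -0.03) and Ndufaf1 (-0.18 and -0.15) in TBI+JM6, Ndufaf1 in TBI+PMI (-0.04 and -0.02) and the sessions (-0.05 and -0.02), and Uqcrq in TBI+E33 (-1.10 and -1.08). The percentile over all probes reversed Sdhc in TBI+PMI (-0.01), and normexp reversed Uqcrq in TBI+E33 (-0.04). Signal over background limits Cox7c and Uqcrq, which were dim in the first session.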
